A study of Citrus x clementina and Citrus japonica with 6 samples.

Results

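Small heat shock proteins of the HSP20 family are chaperones whose transcripts were described here in fruit of kumquat (Fortunella japonica) and of Clementine mandarin (Citrus x clementina), its larger-fruited relative. A gene model was taken as a member when the first KEGG orthology name in the authors' annotation contained HSP20, which held for 50 of the 30139 clementine gene models in the deposited table. Messenger RNA was measured by RNA-seq in 6 fruit libraries, 3 of kumquat and 3 of clementine. Each library combined fruit of 5 stages. The first 3 stages were taken 15, 30 and 45 days after flowering in either species. The last 2 were taken after 80 and 120 days in kumquat, and after 100 and 180 days in clementine. All fruit came from field-grown plants with no treatment, so no library was heat-stressed by design. Whether fruit of either species met heat in the field was not tested. Species and the age of the last 2 stages differ together and cannot be told apart. The stage label of the kumquat libraries names clementine, while their cultivar label says kumquat, and the cultivar label was used. Material came from 3 plants, but no label ties a library to a plant, so p-values measure the spread between these libraries.

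HSP20 proteins share an alpha-crystallin domain and assemble into oligomers. They bind unfolding proteins without using ATP, keep them soluble, and pass them to the HSP70 and HSP100 chaperones for refolding. Plants hold many of them, in the cytosol, nucleus, chloroplast, mitochondrion, peroxisome and endoplasmic reticulum. Heat induces most of them through heat shock factors, and some are also made without heat, in maturing seeds, pollen and ripening fruit.

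All 50 members carried the same KEGG name, HSP20 family protein, and every one had a hypothetical protein as its best protein match. None could therefore be placed in a cytosolic class or an organelle class from the annotation, and the models are given here by their identifiers. GO terms were attached to 8 members. Ciclev10022300m carried terms for the endoplasmic reticulum and for the response to stress, and Ciclev10009588m carried terms for the response to light intensity and to reactive oxygen species. Ciclev10016239m was annotated to transition metal ion binding.

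Levels are given as deposited, in FPKM, fragments scaled to the length of the model and the size of the library. Library sums ranged from 691560 to 707892 FPKM, and 43 to 47 members stood above 0 in a library. Depth in fragments is unknown, and the steps between low values put the depth of the libraries between 0.874 and 1.00 of that of clementine replicate 2. Among 8733 models at 10 FPKM or more in each library, the SD of the log2 ratio between replicates 2 and 3 was 0.163 in kumquat and 0.152 in clementine, against 0.231 and 0.241 in kumquat and 0.201 and 0.206 in clementine for the pairs with replicate 1. Kumquat values rest on clementine models, and how sequence differences between the species moved them was not tested. In whole fruit, fewer cells of a type and less RNA per cell cannot be told apart.

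The family as a whole stood slightly lower in kumquat fruit, and a few abundant models made up most of it in both species. The 50 members summed to 6498, 7268 and 7466 FPKM in the kumquat libraries, against 8045, 9249 and 8874 FPKM in the clementine libraries. No kumquat sum reached the lowest clementine sum. The means were 7077 ± 511 in kumquat and 8722 ± 616 in clementine (SD, n = 3 each), a log2 ratio of -0.30. As a share of all FPKM in a library, the family took 1.01 ± 0.0615% in kumquat and 1.25 ± 0.0839% in clementine. The ratio rested on a few models in either direction. Without Ciclev10029467m, the most abundant member, it was -0.17, and without Ciclev10009756m and Ciclev10029453m, the most abundant members that were higher in kumquat, it was -0.64.

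**Figure D1:**
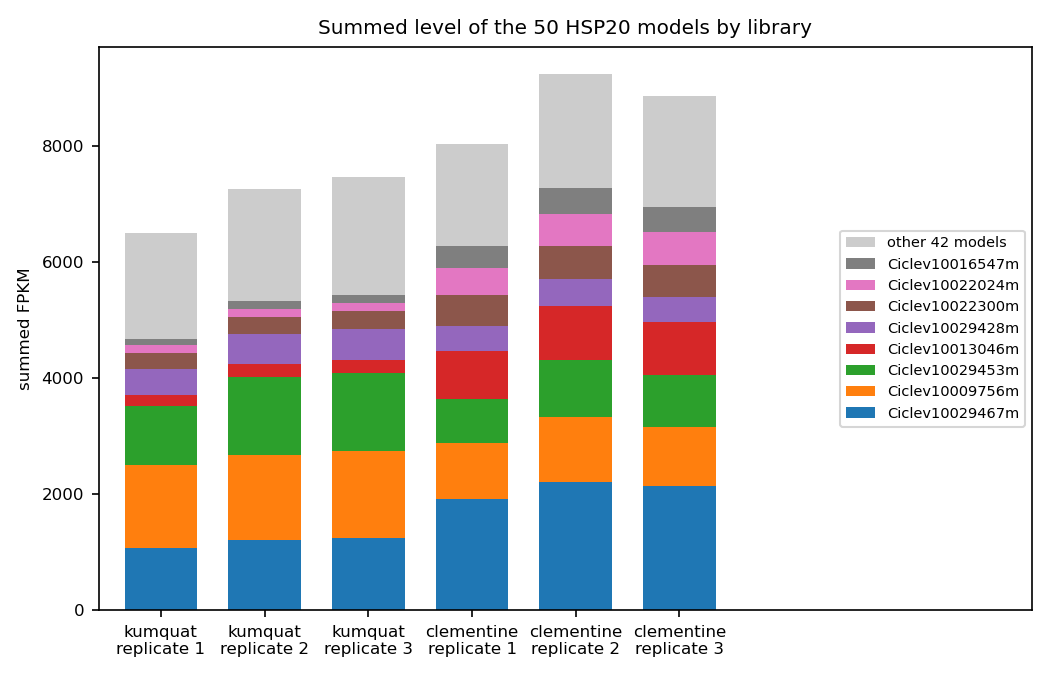
Stacked bars give the summed FPKM of the 50 HSP20 models (y axis) in each of the 6 libraries (x axis), with the 8 most abundant models in darker shades and the other 42 in light grey. The kumquat bars end at 6498 to 7466 FPKM and the clementine bars at 8045 to 9249, and the share of Ciclev10029467m is smaller in kumquat.

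Expression was spread over a wide range within the family. In kumquat 3 members averaged 1000 FPKM or more, 15 averaged 100 or more, 13 lay between 10 and 100, 12 between 1 and 10, and 10 under 1. In clementine 2 averaged 1000 or more, 17 averaged 100 or more, 10 lay between 10 and 100, 11 between 1 and 10, and 12 under 1. The 4 highest members held 61.8% of the family's sum in kumquat and 56.0% in clementine. The 10 highest held 83.7% in kumquat and 83.9% in clementine, and 8 models belonged to the 10 highest in both species. Across the 40 tested members, the mean levels on the log2(FPKM + 1) scale had a Pearson's r of 0.77 between the species, where the 22050 tested models of the whole table had 0.83. These are descriptions across models that share the same 6 libraries.

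The members diverged between the species in both directions, and more of them were lower than higher in kumquat. Models that reached 1 FPKM in 3 or more libraries entered a limma fit on the log2(FPKM + 1) scale, 22050 in all. A call required a p under 0.05 after Benjamini-Hochberg adjustment over all of them. Of the 50 members, 40 passed this filter. Among these, 29 or 72.5% were called, where 57.1% of all tested models were called. Called members were higher in kumquat for 11, or 27.5%, against 29.9% of all tested models. They were lower in kumquat for 18, or 45.0%, against 27.1% of all tested models. Folds were taken on the log2(FPKM + 1) scale. Of the called members, 7 were at least 2-fold higher, or 17.5% of those tested against 12.4% of all tested models. At least 2-fold lower were 10, or 25% against 12.1% of all tested models. The remaining 11 tested members were not called, of which 3, Ciclev10006241m, Ciclev10003298m and Ciclev10016030m, had an unadjusted p under 0.05.

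The median log2 change of the 40 tested members, kumquat minus clementine, was -0.25, and that of all tested models was 0.04. Without kumquat replicate 3 the members' median was -0.45, without kumquat replicate 1 it was -0.42, and with a filter at 5 FPKM it was -0.38. Those fits tested 38, 37 and 34 members, so part of the 40 dropped out. Their medians over all models tested were 0.014, 0.005 and 0.042. Sizes of change were larger in the family than in the table, with a median absolute log2 change of 0.90 for the tested members and 0.50 for all tested models. The tested members also stood at higher levels. Their median was 32.4 FPKM in kumquat and 36.8 in clementine, against 10.2 and 9.74 FPKM for all tested models. The part of level in the sizes of change and in the share called was not tested. Few tested members stayed under 1 FPKM throughout 1 species. Of those tested, 2 members, Ciclev10003244m and Ciclev10016030m, did so in every clementine library and passed the filter through kumquat alone, and 0 did so in every kumquat library. Members under 1 FPKM in only some libraries of a species are not in this count. Ciclev10032587m, at 0.81, 0.77 and 1.28 FPKM in kumquat, needed its clementine libraries to pass. In FPKM, the 11 called higher members summed to 3484 in kumquat and 2068 in clementine, a difference of 1417. The 18 called lower members summed to 2393 in kumquat and 5555 in clementine, a difference of -3163.

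**Figure D2:**
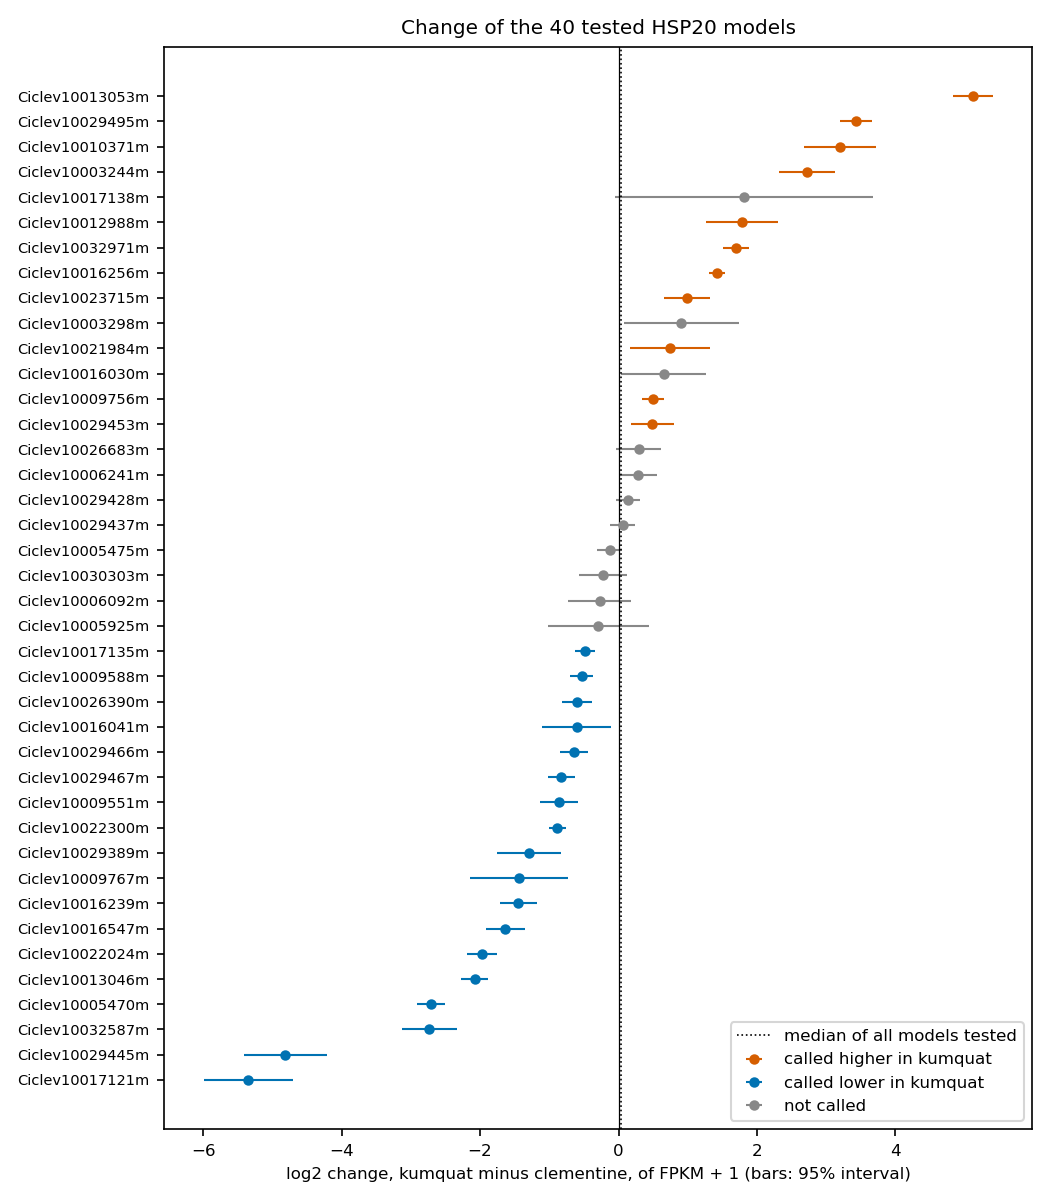
Points give the log2 change of FPKM + 1, kumquat minus clementine (x axis), for each of the 40 tested HSP20 models (y axis), with bars for the 95% interval from limma. The 11 called higher models reach 5.12 and the 18 called lower models reach -5.35, and the dotted line marks the median of all models tested at 0.04.

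Among the 7 members at least 2-fold higher in kumquat, 1 was nearly silent in clementine and well expressed in kumquat. Ciclev10013053m, annotated to the response to stimulus, had 95.1, 115 and 105 FPKM in kumquat, against 2.50, 1.74 and 1.94 FPKM in clementine. Its lowest kumquat library stood far above its highest clementine library. The means differed 51.0-fold, and the log2 change was 5.12 ± 0.121 (SE, adjusted p = 1.74e-07).

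Ciclev10029495m, also annotated to the response to stimulus, was the most abundant of the 7 in kumquat. It had 274, 298 and 304 FPKM in kumquat, against 22.5, 27.4 and 29.0 FPKM in clementine. The groups did not overlap, and the means differed 11.1-fold, with a log2 change of 3.43 ± 0.0965 (SE, adjusted p = 2.91e-07). This model made up 4.12% of the family's FPKM in kumquat and 0.301% in clementine.

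Ciclev10016256m had the smallest standard error of the family. Its levels were 205, 215 and 208 FPKM in kumquat, against 78.1, 75.6 and 78.8 FPKM in clementine. All kumquat values lay well above all clementine values, with a log2 change of 1.42 ± 0.0474 (SE, adjusted p = 6.13e-07). Ciclev10032971m had 93.2, 93.6 and 102 FPKM in kumquat, against 27.1, 28.2 and 32.2 FPKM in clementine. It too was separated without overlap, and its log2 change was 1.70 ± 0.0795 (SE, adjusted p = 2.81e-06).

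The other 3 of these members were of low to moderate level. Ciclev10010371m had 38.6, 24.3 and 37.2 FPKM in kumquat, against 1.95, 2.71 and 3.56 FPKM in clementine. Ciclev10012988m had 11.8, 18.6 and 23.2 FPKM in kumquat, against 4.43, 4.44 and 4.02 FPKM in clementine. Ciclev10003244m had 10.2, 12.3 and 8.63 FPKM in kumquat, against 0.74, 0.71 and 0.70 FPKM in clementine. None of the 3 overlapped between the species, although kumquat replicate 2 was low for Ciclev10010371m and kumquat replicate 1 was low for Ciclev10012988m. Their log2 changes were 3.19 ± 0.223, 1.79 ± 0.224 and 2.72 ± 0.173 (SE), with adjusted p-values up to 0.000377. The last of these understates the ratio of the raw means, 14.5-fold, since 1 FPKM was added before the logarithm.

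Among the 10 members at least 2-fold lower in kumquat, 2 were close to silent in kumquat and well expressed in clementine. Ciclev10017121m had 3.44, 1.00 and 1.24 FPKM in kumquat, against 105, 113 and 109 FPKM in clementine. The clementine libraries were close to each other and all of them far above kumquat. The means differed 57.7-fold, and the log2 change was -5.35 ± 0.276 (SE, adjusted p = 4.46e-06). Ciclev10029445m had 6.30, 2.59 and 5.42 FPKM in kumquat, against 131, 172 and 164 FPKM in clementine. Its groups were as clearly apart, with a 32.6-fold difference of the means and a log2 change of -4.81 ± 0.256 (SE, adjusted p = 5.11e-06).

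The lower members also included several of the family's most abundant models. Ciclev10013046m, the fourth most abundant member over all libraries, had 186, 223 and 217 FPKM in kumquat, against 817, 932 and 899 FPKM in clementine. All clementine libraries were far above all kumquat libraries, with a log2 change of -2.08 ± 0.0852 (SE, adjusted p = 1.5e-06). Its share of the family's FPKM was 2.95% in kumquat and 10.1% in clementine. Ciclev10022024m had 123, 141 and 139.7 FPKM in kumquat, against 466, 563.5 and 565 FPKM in clementine. Replicate 1 was the lowest of its species in both fruits, and the groups stayed apart with a log2 change of -1.97 ± 0.0935 (SE, adjusted p = 2.98e-06).

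Ciclev10016547m and Ciclev10016239m, which are listed next to each other in RefSeq's clementine genes, were both lower in kumquat. Ciclev10016547m had 110.4, 147 and 142 FPKM in kumquat, against 372, 443 and 429 FPKM in clementine. Ciclev10016239m had 55.5, 72.1 and 73.1 FPKM in kumquat, against 167, 194 and 189 FPKM in clementine. In both models replicate 1 was the lowest library of each species, and no kumquat library reached a clementine one. Their log2 changes were -1.64 ± 0.119 and -1.45 ± 0.114 (SE), with adjusted p-values of 2.32e-05 and 3.48e-05.

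Ciclev10005470m had 13.4, 10.9 and 11.8 FPKM in kumquat, against 88.7, 80.2 and 83.0 FPKM in clementine. Its replicates were tight in both species, and the log2 change was -2.71 ± 0.0883 (SE, adjusted p = 5.55e-07). Ciclev10032587m had 0.81, 0.77 and 1.28 FPKM in kumquat, against 10.8, 12.8 and 12.1 FPKM in clementine. It stood near the filter in kumquat and had a log2 change of -2.73 ± 0.167 (SE, adjusted p = 9.7e-06).

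The other 2 lower members were low in both fruits. Ciclev10009767m had 1.12, 3.71 and 2.99 FPKM in kumquat, against 9.75, 7.92 and 7.23 FPKM in clementine. Ciclev10029389m had 3.06, 2.65 and 1.91 FPKM in kumquat, against 9.45, 6.60 and 6.99 FPKM in clementine. Both were separated, with wider spread between replicates than the abundant models, and their log2 changes were -1.44 ± 0.301 and -1.29 ± 0.197 (SE), with adjusted p-values of 0.00485 and 0.00102.

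**Figure D3:**
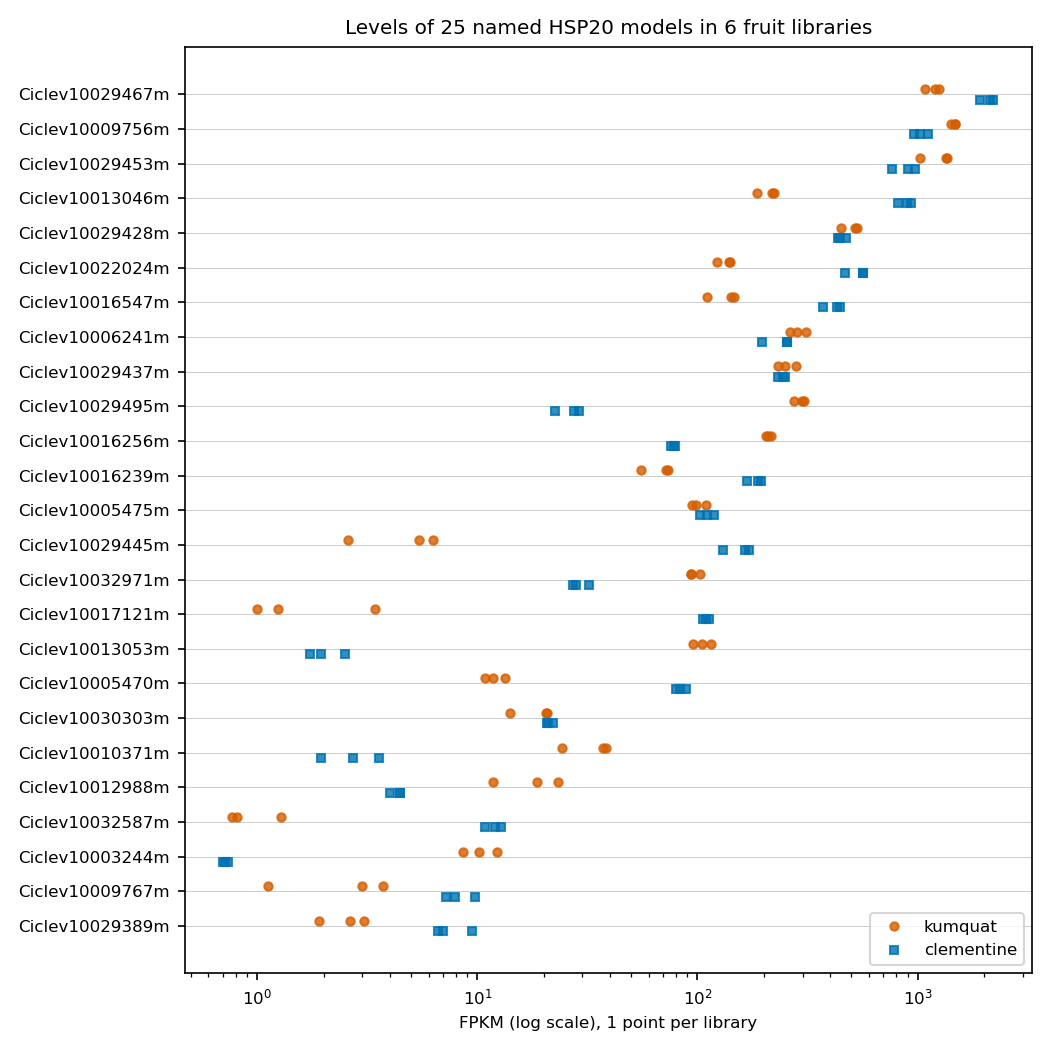
Each point is the FPKM of 1 library (x axis, log scale) for each of 25 HSP20 models (y axis, ordered by mean level), with kumquat as circles and clementine as squares. Ciclev10013053m and Ciclev10017121m show the widest gaps, 105 against 2.06 FPKM and 1.89 against 109 FPKM in the means of kumquat and clementine.

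The 3 most abundant members of the family were called, each with a change under 2-fold, and they did not share a direction. Ciclev10029467m had 1078, 1199.7 and 1249 FPKM in kumquat, against 1920.5, 2212 and 2132 FPKM in clementine. Each clementine library exceeded each kumquat library, and the log2 change was -0.83 ± 0.0832 (SE, adjusted p = 0.000123). By mean level it ranked 28 of all 30139 models in kumquat and 13 in clementine.

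Ciclev10009756m, annotated to the response to stimulus, had 1419, 1472 and 1485 FPKM in kumquat, against 961, 1115 and 1027 FPKM in clementine. It was higher in every kumquat library, with a log2 change of 0.50 ± 0.0693 (SE, adjusted p = 0.00065). It was the leading member in kumquat, with 20.6% of the family's FPKM there and 11.9% in clementine. Ciclev10029467m, the leading member in clementine, held 16.6% in kumquat and 23.9% in clementine. The order of the highest members thus differed between the fruits.

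Ciclev10029453m had 1023, 1343 and 1362 FPKM in kumquat, against 766, 977 and 903 FPKM in clementine. Replicate 1 was lowest in both species, and the groups were separated by a small gap between kumquat replicate 1 and clementine replicate 2. The log2 change was 0.49 ± 0.134 (SE, adjusted p = 0.0161). The call was lost without kumquat replicate 2 (adjusted p = 0.0528) or without kumquat replicate 3 (adjusted p = 0.0542).

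Of the 11 members not called, the 5 with the highest mean level differed little between the fruits. Ciclev10029428m had 447, 517 and 529 FPKM in kumquat, against 436, 474 and 445 FPKM in clementine. The species overlapped, with a log2 change of 0.14 and a 95% interval from -0.04 to 0.31 (adjusted p = 0.16), and without kumquat replicate 1 it was called at 0.21 (adjusted p = 0.0147). Ciclev10029437m had 233, 249 and 280.1 FPKM in kumquat, against 233, 245 and 251 FPKM in clementine. These levels overlapped almost fully, with a log2 change of 0.06 and an interval from -0.12 to 0.23 (adjusted p = 0.528).

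Ciclev10006241m had 262, 284 and 312 FPKM in kumquat, against 197, 256 and 254 FPKM in clementine. The groups were separated by a narrow gap, but the log2 change of 0.29, with an interval from 0.02 to 0.55, missed the threshold (adjusted p = 0.0646). It passed without kumquat replicate 1 (adjusted p = 0.0465). Ciclev10005475m had 98.8, 94.8 and 109 FPKM in kumquat, against 119, 111 and 102 FPKM in clementine. These overlapped, with a log2 change of -0.13 and an interval from -0.31 to 0.05. Ciclev10030303m had 14.0, 20.6 and 20.6 FPKM in kumquat, against 20.8, 20.9 and 22.1 FPKM in clementine. Kumquat replicate 1 stood apart from the other 5 libraries, and the log2 change of -0.22 had an interval from -0.56 to 0.12.

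The other called members changed by less than 2-fold on the log2(FPKM + 1) scale. Higher in kumquat were Ciclev10023715m and Ciclev10021984m, with log2 changes of 0.99 and 0.75. Their raw means differed 2.12-fold and 2.15-fold. With a pseudocount of 0.1 FPKM, 9 members were at least 2-fold higher, against 7 with 1 FPKM. Lower in kumquat were 7 members, with log2 changes from -0.88 to -0.48 and adjusted p-values from 7.83e-06 to 0.0431. The most abundant of these was Ciclev10022300m, the member with the endoplasmic reticulum term, at 288, 295 and 312 FPKM in kumquat, against 541, 564 and 547 FPKM in clementine. Its libraries were tight and separate, with a log2 change of -0.88 ± 0.0516 (SE, adjusted p = 7.83e-06). Ciclev10009588m, with the light and oxidative stress terms, had 131, 111 and 122 FPKM in kumquat, against 168, 183 and 175 FPKM in clementine. It was lower in every kumquat library, with a log2 change of -0.53 ± 0.0713 (SE, adjusted p = 0.000525).

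The remaining 6 members that were not called had log2 changes from -0.29 to 1.81. The widest spread was that of Ciclev10017138m, at 12.4, 4.54 and 0.32 FPKM in kumquat, against 0, 0 and 1.28 FPKM in clementine. Its kumquat libraries disagreed by more than the species did, and the change of 1.81 had an adjusted p of 0.0882. Its protein match was the same as that of Ciclev10017135m, the only match shared within the family. Summed, the pair had 44.8, 34.8 and 32.1 FPKM in kumquat, against 42.9, 46.9 and 44.8 FPKM in clementine. The sums overlapped, with a log2 change of -0.28 ± 0.115 (SE, adjusted p = 0.0674), while Ciclev10017135m alone was called lower at -0.48 (adjusted p = 0.0005). How the authors' counting divided fragments between models of similar sequence is not given in the sources used here.

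The 10 untested members reached at most 2.71 FPKM in any library. Listed at 0 in all kumquat libraries were 4 of them, Ciclev10030150m, Ciclev10003876m, Ciclev10003649m and Ciclev10033601m. Listed at 0 in all clementine libraries were 2, Ciclev10003210m and Ciclev10003506m. The highest of these was Ciclev10030150m, with 0.49, 2.71 and 1.33 FPKM in the clementine libraries, and no fold is given against values listed at 0.

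Some members are listed side by side in RefSeq's clementine genes, which matched 33 members. The RefSeq table used names no chromosome, so neighbours were inferred from its row order within stretches of rising start position, and a boundary between chromosomes inside such a stretch would not have been seen. On this reading there were 5 runs of members with no other RefSeq gene listed between them, 12 models in all. The longest run held 4 models, in the order Ciclev10029445m, Ciclev10029437m, Ciclev10029428m and Ciclev10029495m. Its outer models differed in opposite directions and its inner models were not called. The first, Ciclev10029445m, made up 0.455% of the run's FPKM in kumquat and 17.7% in clementine, while the last, Ciclev10029495m, made up 27.8% in kumquat and 3.00% in clementine. The inner models held similar shares in both fruits, 24.2% in kumquat and 27.7% in clementine for Ciclev10029437m, and 47.5% in kumquat and 51.5% in clementine for Ciclev10029428m.

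Summed over the 4 models, the run had 960.3, 1066 and 1118.5 FPKM in kumquat, against 823, 918 and 888 FPKM in clementine. The sums were separate, and their means differed by 0.26 on the log2 scale. The inner models, which were not called, held most of the sum in both fruits. Kumquat minus clementine, the means of the outer models differed by 265.5 FPKM for Ciclev10029495m and -150.6 FPKM for Ciclev10029445m. The opposite changes were thus unequal in FPKM. Between this run and Ciclev10029453m, the third most abundant member, 4 genes are listed. Whether fragments of one model were assigned to another in this run was not tested.

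A run of 2 models also held members that differed in opposite directions. Ciclev10012988m was higher in kumquat and Ciclev10013046m was lower, and the sum of both followed the more abundant model, at 226 ± 24.98 FPKM in kumquat and 887 ± 59.2 FPKM in clementine (SD, n = 3 each). In the run of Ciclev10016547m and Ciclev10016239m both were lower, and their sum was 200.1 ± 29.7 FPKM in kumquat and 597.5 ± 51.7 FPKM in clementine (SD, n = 3 each). The division between these neighbours was alike in the fruits, with 66.6% of the sum in Ciclev10016547m in kumquat and 69.3% in clementine. The last 2 runs, each of 2 models, held members near or under 1 FPKM.

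**Figure D4:**
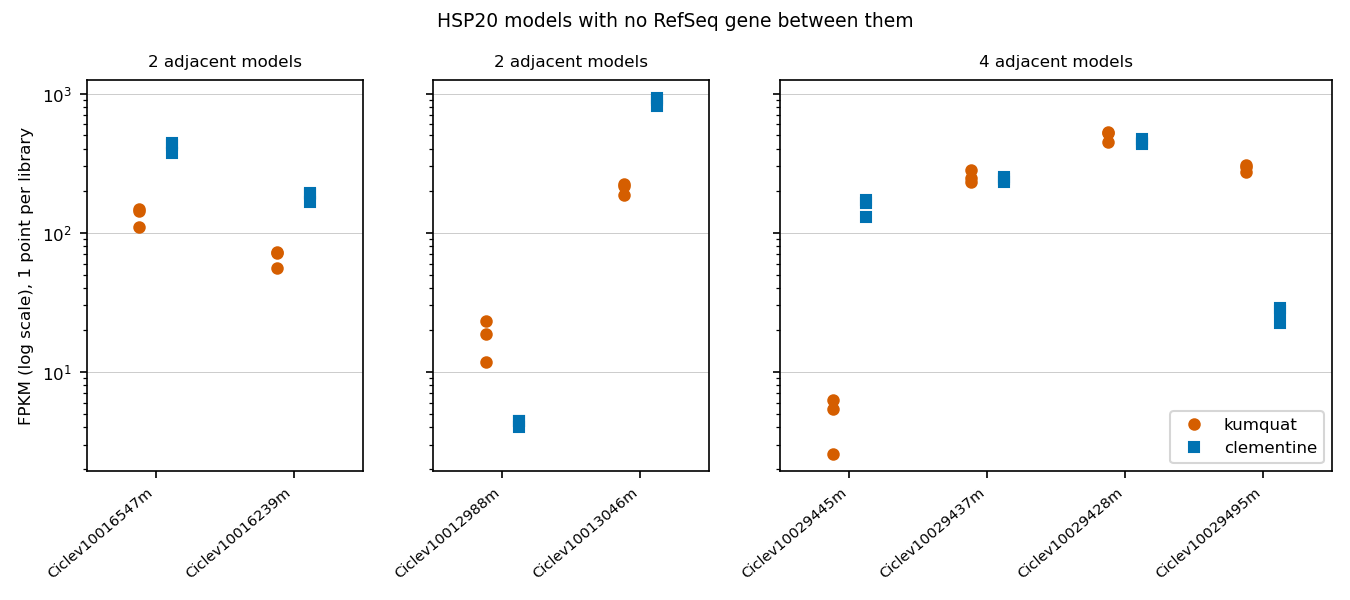
Each point is the FPKM of 1 library (y axis, log scale) for HSP20 models in RefSeq's listed order (x axis) in the 3 runs of neighbours with appreciable levels, with kumquat as circles and clementine as squares. In the run of 4, Ciclev10029445m stands at 2.59 to 6.30 FPKM in kumquat and 131 to 172 in clementine, Ciclev10029495m at 274 to 304 in kumquat and 22.5 to 29.0 in clementine, and the models between them overlap.

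Replicate 1 was more often the lowest library for the members than for the table as a whole, in both fruits. Kumquat replicate 1 was the lowest kumquat library for 24 of the 40 tested members, or 60.0%, against 35.6% of all tested models. Clementine replicate 1 was the lowest clementine library for 26 of the 40, or 65.0%, against 35.0% of all tested models. The median deviation of the members from their species mean, on the log2(FPKM + 1) scale, was -0.10 in kumquat replicate 1 and -0.06 in clementine replicate 1, and lay between 0.02 and 0.09 in the other 4 libraries. The 17 members at least 2-fold apart were chosen from these same values for large changes, so they say little on what these shifts do. Each of them kept its call and direction without any 1 library wherever it was tested. Ciclev10003244m was not tested in the fits without a kumquat library.

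**Figure D5:**
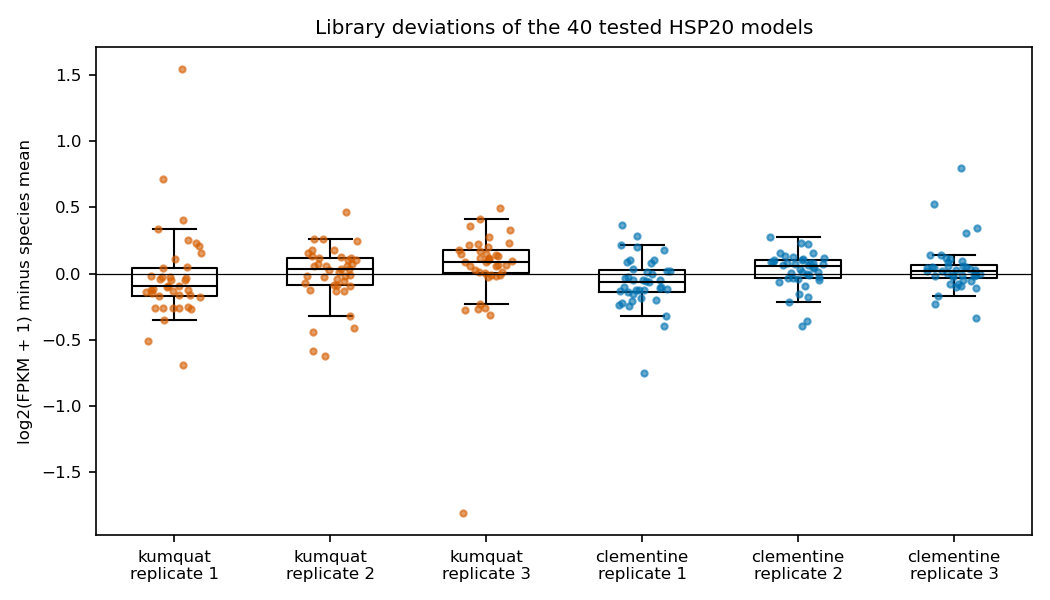
Each point is the log2(FPKM + 1) of 1 tested HSP20 model minus its species mean (y axis) in each of the 6 libraries (x axis), and boxes give the median and quartiles with whiskers to 1.5 times the box. The medians of replicate 1 lie below 0 in both species, at -0.10 in kumquat and -0.06 in clementine.

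Heat shock factors, HSP70 and HSP90 had more models called higher than lower in kumquat. Heat shock factors, the transcription factors that bind heat shock promoters, were higher in kumquat for 12 of 29 tested models, lower for 5 and not called for 12, with a median log2 change of 0.29. HSP70, the ATP-driven chaperone that receives clients from HSP20 proteins, was higher for 31 of 55 tested models, lower for 11 and not called for 13, with a median of 0.40. HSP90, which matures signalling proteins, was higher for 5 of 7, lower for 1 and not called for 1, with a median of 0.38. HSP60, the chaperonin of mitochondria and chloroplasts, was higher for 4 of 7, lower for 2 and not called for 1, with a median of 0.46. HSP40, the co-chaperone of HSP70, was higher for 30 of 102, lower for 26 and not called for 46, with a median of 0.07, and the counts were even at 28 each when libraries were scaled to their median ratio. HSP100 (ClpB), which pulls proteins out of aggregates, was higher for 3 of 15, lower for 4 and not called for 8, with a median of -0.09. For all tested models, 29.9% were higher, 27.1% lower and the median was 0.04. Without 1 clementine library, the count of lower heat shock factors was 3, that of lower HSP70 models 6 or 7, and that of lower HSP60 models 1. Without kumquat replicate 3, 3 HSP60 models were higher and 3 lower. With a filter at 5 FPKM, 2 heat shock factors and 1 HSP60 model were lower. The count of lower HSP40 models was 17, 16 and 15 without kumquat replicate 3, clementine replicate 2 and clementine replicate 3. Lower calls over all models fell too. They were 4465 of 20762, 4269 of 20771 and 4300 of 20781 without clementine replicates 1, 2 and 3, against 5980 of 22050 in the main fit. Without kumquat replicate 3, 5407 of 20945 models were lower and 5218 higher. With the filter at 5 FPKM, 4639 of 15485 were lower.

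In summed level, HSP70 models had 4068 ± 59.8 FPKM in kumquat and 2833 ± 33.0 FPKM in clementine (SD, n = 3 each). HSP90 models had 1631 ± 67.5 FPKM in kumquat and 1303 ± 44.6 FPKM in clementine, and HSP100 models had 422 ± 19.4 FPKM in kumquat and 459 ± 26.7 FPKM in clementine. An exception among the HSP90 models was Ciclev10019095m, at 43.2, 41.6 and 35.9 FPKM in kumquat, against 179, 208 and 198 FPKM in clementine. It was lower in every kumquat library, with a log2 change of -2.25 ± 0.0872 (SE, adjusted p = 1.19e-06).

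Markers of seed and of green tissue differed between the fruits as well. All 3 seed markers were higher in kumquat, and their summed level ranged from 2468 to 2971 FPKM in kumquat and from 644 to 808 FPKM in clementine, with no marker at 0 in any library. They were Ciclev10006308m and Ciclev10006365m, which share a protein match, and the vicilin-like Ciclev10027019m. With models of the same match summed, 2 markers were higher. No oleosin, legumin or 2S albumin was among them, so the list is a weak measure of seed tissue. Most of the summed level was Ciclev10006308m, a late embryogenesis abundant protein, a class of protectants known from drying seeds and stressed tissue, at 2618 ± 253 FPKM in kumquat and 701 ± 85.5 FPKM in clementine (SD, n = 3 each). Of 34 tested green tissue markers, subunits of the photosystems and their antennae, 18 were lower in kumquat, 4 were higher and 12 were not called. Of all tested models, 27.1% were lower and 29.9% higher. The summed level of the green tissue markers ranged from 8144 to 9129.8 FPKM in kumquat and from 9266 to 10158 FPKM in clementine. The count of higher green tissue markers was 2 without clementine replicate 2, where 5777 of 20771 tested models were higher. The part of seed and green tissue in the HSP20 differences was not tested.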

How the data were processed

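Per the series' design text and the labels, total RNA of pooled fruit stages was extracted with TRIzol, treated with DNase I and sequenced on an Illumina instrument. HISAT, StringTie and DESeq2 were used, per the submitters' processing notes, which give neither their versions nor their roles. The genome build is not given in the sources used here. The deposited table holds FPKM per gene model and library as the authors computed them, to 2 decimals, per the file headers. A value of 0 may stand for an estimate that failed.

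Members were the models with HSP20 in their first KEGG name. The members and lists were chosen with earlier results of these data known. Values were tested as log2(FPKM + 1), which understates changes at low levels, with limma 3.58.1 in R 4.3.3 (mean-dependent prior variance, no covariate, two-sided, Benjamini-Hochberg adjustment over 22050 models). The chaperone lists and the seed and green tissue markers were chosen by words in the annotation. The naming rule took called members at least 2-fold apart whose higher species averaged 5 FPKM or more, the 5 most abundant members and the 5 most abundant members not called. It gave 25 models, with Ciclev10013046m and Ciclev10029428m under more than 1 part of it. Other members named were chosen after their values were seen. RefSeq (Citrus_clementina_v1.0) was matched by protein accession and used only for which genes neighbour each other, inferred from row order and rising start positions since it names no chromosome.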

Additional observations from a re-analysis of the deposited data

How the results depend on the processing

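Alternatives were another pseudocount (0.1 FPKM), no filter, a filter of 5 FPKM, median scaling of libraries, the replicate number as a block, each library left out in turn, and summing of models that share a protein match. Taking members by any KEGG name or protein match gave the same 50 models, so it was no separate check. Over the alternatives, the count of members higher in kumquat was between 8 and 14 and that of lower members between 17 and 21. The models tested changed with the setting. The 21 lower came without a filter, with 50 members tested and 6224 of 30139 models lower. The 8 higher came without kumquat replicate 2, with 37 members tested and 5117 of 20946 models higher. The 14 higher came with shared protein matches summed, where 6309 of 19365 entries were higher. The 17 members named as at least 2-fold apart kept call and direction in all 201 values, but they were chosen from these data for large changes. The members' median log2 change was -0.38 with the filter of 5 FPKM, where 34 members were tested, and between -0.45 and -0.17 with 1 library left out. The fits with 1 library left out tested 37 to 40 members, and their medians over all models lay between 0.005 and 0.081. The log2 ratio of summed FPKM was -0.17 without the most abundant member and -0.64 without the 2 most abundant higher members, both chosen after seeing the data. Ciclev10029437m reversed to -0.014 without kumquat replicate 3 and was not called either way. With the replicate block, 13 of 40 tested members were higher and 18 lower, where 6772 of 22050 models were higher and 6172 lower. The numbers were not taken as pairs, since no label says that they mark a shared plant or day. Over all tested models, deviations of same-numbered libraries correlated at 0.12, 0.04 and 0.07, and each library correlated best with its own number. In the 3 most abundant members the block lowered the SE, from 0.0832, 0.0693 and 0.134 to 0.036, 0.0423 and 0.0437. It raised the SE of Ciclev10013053m, Ciclev10032587m, Ciclev10003244m and Ciclev10009767m. A replicate effect shared by the fruits was not tested in the family. Under the block Ciclev10006241m was called (adjusted p = 0.00655), as it was when models sharing a protein match were summed (adjusted p = 0.0495). Depth is unknown, so counting error cannot be given, and differences of members near 1 FPKM are the least certain.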
